A study of Arabidopsis thaliana and Arabidopsis thaliana x Arabidopsis arenosa and Arabidopsis arenosa with 18 samples.

Results

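The loci described here are 88 of the 33602 in the gene table that gave transcripts in every seed library with a Col mother and almost none in every seed library with a C24 mother. They were chosen by their read counts, scaled to library size as CPM, the count over the sum of all gene counts of the library. A nuclear locus had to reach at least 2 CPM in the 4 Col-mother seed libraries and stay at or under 0.5 CPM in the 4 C24-mother seed libraries. The rRNA loci and 1 further locus, set aside by name, were left out. The Col to C24 contrast in seeds is therefore the choice itself, and it is described without a test. The name "Col mother only" holds at these limits and not at 0 reads: 24 of the 88 had 0 reads in all 4 C24-mother seed libraries, and the other 64 had some.

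The mothers came from the natural A. thaliana accessions Col-0 (Col below) and C24, and the diploid A. arenosa var. Strecno is a related species. All A. thaliana mothers were diploid and hemizygous for a construct that makes the anthers sterile (ColA9 and C24A9 in the labels), so each group with such a mother shares it. They were pollinated by hand with their own accession (Col control, C24 control) or with A. arenosa (Col hybrid, described as incompatible, and C24 hybrid, described as compatible). One A. arenosa plant fathered every hybrid, so the hybrids carry the alleles of a single father plant. Whole seeds of the 4 crosses, whole siliques of both hybrids, and whole seeds of A. arenosa crossed with A. arenosa were collected 3 days after pollination, with 2 libraries in each of the 7 groups. The labels do not say that the 2 libraries came from separate plants, so p-values measure the spread between these libraries, which may be technical.

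A seed at this age holds a maternal seed coat around an embryo and an endosperm, which are the products of fertilization. A silique is the fruit, maternal tissue that encloses the seeds. Accessions of one species differ by deleted, duplicated and rearranged genes and by stretches of DNA that are silenced in one accession and transcribed in another, and intracellular immune receptors, small secreted peptides, pseudogenes and transposon remnants are known for such differences. The reads were counted on TAIR10, a genome built from Col-0. A locus that C24 lacks, a locus that is silent in C24 and a locus whose C24 reads failed to align cannot be told apart in these counts. In bulk tissue, fewer cells of a type and less RNA per cell cannot be told apart either.

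Gene reads per library ran from 8931520 to 16149496 with an A. thaliana mother, and were 1777781 and 2089616 in the A. arenosa controls. The lower limit of 2 CPM stood for 17.9 to 32.3 reads in the Col-mother seed libraries, and the upper limit of 0.5 CPM for 5.77 to 7.96 reads in the C24-mother seed libraries. Replicate 1 of both A. thaliana controls stood apart: reads fell on 31430 loci in Col control 1 against 23123 in Col control 2, and on 28243 in C24 control 1 against 23105 in C24 control 2. Of the 88 loci, 49 had reads in C24 control 1 and 25 in C24 control 2. Of the marker lists, the seed coat genes BAN, STK and TT16 summed to 1018 to 4171 CPM in seeds with an A. thaliana mother, and the 4 endosperm genes AGL62, FWA, IKU2 and MINI3 to 58.0 to 192 CPM. In the A. arenosa seed libraries these endosperm genes came to 0 and 0.479 CPM, with FWA, IKU2 and MINI3 at 0 in both. The valve gene FUL was at 72.6 and 188 CPM there, against 0.251 to 2.39 CPM in the other seeds, and what part the tissue taken plays in the A. arenosa values was not tested.

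In Col-mother seeds, the mean level of the 88 loci ran from 2.59 to 192 CPM with a median of 8.28 CPM. Together they gave 1576 and 1665 CPM in Col control seeds and 1808 and 1642 CPM in Col hybrid seeds. The same loci summed to 8.14 and 4.84 CPM in C24 control seeds and to 9.47 and 5.98 CPM in C24 hybrid seeds. They were 0.583% of the 15085 loci at or over 2 CPM in all 4 Col-mother seed libraries, called Col-expressed loci below. The reverse rule, with Col and C24 exchanged, found 9 loci, or 0.0616% of 14614. That count depended on 1 library: without Col control 1 it was 33, while the count for the Col mother was 88 without it and at most 105 without any 1 library. Leaving out a library removes a condition of the rule, so neither count could fall. At the limits, PTR4, a peptide transporter family gene (AT2G02020), had its lowest Col-mother value at 2.08 CPM, and ACS2, an ethylene synthesis gene, fell outside at 1.90 CPM. AT1G23960 reached 0.478 CPM in 1 C24 library, and the sucrose synthase gene SUS4 fell outside at 0.520 CPM.

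**Figure D1:**
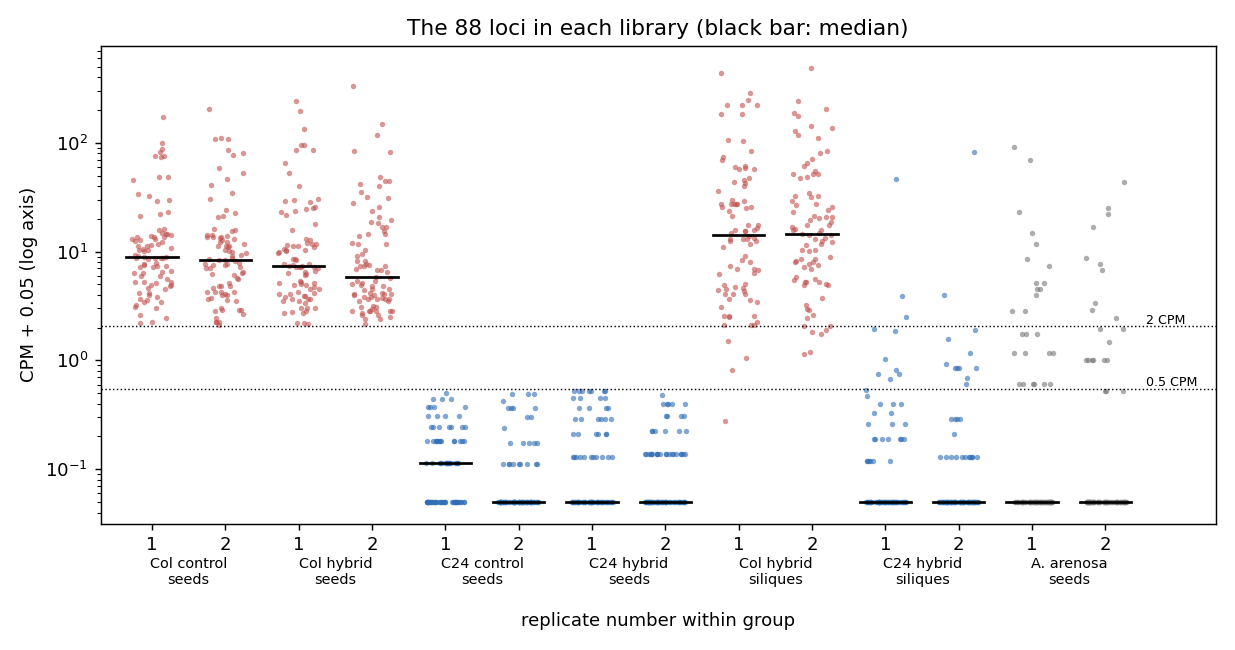
CPM of the 88 loci (1 point each, log axis, 0.05 added) in each of the 14 libraries, with the median as a black bar and the limits of 2 and 0.5 CPM as dotted lines. The seed values were fixed by the choice of loci. The silique values were not, and 83 of the 88 loci lay at or over 2 CPM in both Col hybrid silique libraries, while 76 stayed at or under 0.5 CPM in both C24 ones.

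By annotation, many of the 88 loci were not protein-coding genes. Protein-coding loci were 60 of the 88, or 68.2%, against 98.9% of the Col-expressed loci. Loci annotated as pseudogenes were 19 (21.6% against 0.630%), and non-coding RNAs were 8 (9.09% against 0.378%). SADHU1-1, a retroposon described below, is also annotated as a pseudogene but was counted as a transposable element. The label therefore does not mean a disabled gene copy in each case. Which of the 19 are gene copies and which are transposon remnants was not tested. Another 20 were annotated as unknown or uncharacterized (22.7% against 4.97%). Disease resistance genes, counted by product names with TIR-NBS, NB-ARC or the lower-case words disease resistance, were 5 (5.68% against 0.245%). Such genes encode intracellular receptors for pathogen proteins. Other spellings and names with LRR alone were not counted, so this class, here and below, covers part of the family. Defensin-like or cysteine-rich peptides were 3, loci named as transposable elements 2 and F-box genes 1. Loci named as enzymes were 14 (15.9% against 25.9%), and no kinase and no ribosomal protein gene was among the 88. The classes were formed from words of product names or notes and from the annotated kind of locus. Some of the shares were known when the loci were chosen.

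The highest level per length belonged to LCR48 (AT3G48231), a member of the low-molecular-weight cysteine-rich family of small secreted peptides. It had 81.8 and 111 CPM in Col control seeds and 241 and 334 CPM in Col hybrid seeds. In the C24-mother seeds it had 0 CPM in 3 libraries and 0.159 CPM in C24 hybrid 1. Its mean over the Col-mother seeds was 438 CPM per kilobase of exon, against 63.2 CPM per kilobase for the next locus, AT4G20480. The lowest was 0.635 CPM per kilobase, at the pseudogene AT5G23955. The pseudogene AT2G06950 had 174 and 204 CPM in Col control seeds and 197 and 148 CPM in Col hybrid seeds, and at most 0.0867 CPM in any C24-mother seed library. Another pseudogene, AT2G11240, had 73.7 and 52.7 CPM in controls and 95.9 and 41.7 CPM in hybrids. LCR48 and both pseudogenes thus had 0 to 2 reads in each C24-mother seed library.

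The silique libraries took no part in the choice of the loci and give the same pair of mothers in whole fruits. These fruits enclose hybrid seeds of the same crosses, so their values are not independent of the seed contrast used for the choice. In Col hybrid siliques the 88 loci summed to 3705 and 3432 CPM, and in C24 hybrid siliques to 64.7 and 97.9 CPM. In all 88, both Col libraries lay above both C24 libraries, an order that 30.1% of all loci tested showed. Of the 88, 72 (81.8%) reached at least 2 CPM in both Col and at most 0.5 CPM in both C24 silique libraries. Of the 14997 other Col-expressed loci, 26 (0.173%) did. Most of those others (94.5%) had at least 2 CPM in all 4 C24-mother seed libraries, so the 2 shares are a description and not support for the choice. In edgeR's quasi-likelihood test with Benjamini-Hochberg adjustment, 79 were called higher with the Col mother at an adjusted p under 0.05, where 1.69% of the 20103 loci tested were called higher. None was called lower by edgeR, 0 had an unadjusted p under 0.05 in that direction, and 1.09% of all loci were called lower by edgeR. DESeq2 called 81 higher and 0 lower, where it called 2.82% and 2.25% of all loci. The low-count filter kept 87 of the 88, of which 75 passed through the Col libraries alone. These calls are therefore given as a description and not as support for the choice. The same holds for the silique calls, p-values and SE of single loci below. Without Col hybrid silique 2 the test called 51 higher, and 49 calls held without each library in turn. The marker list sums did not separate the 2 silique groups. Seed coat genes summed to 643 and 852 CPM in Col and 826 and 678 CPM in C24. The 5 fruit valve and margin genes summed to 387 and 367 CPM in Col and 369 and 396 CPM in C24. This fruit sum was 397 to 507 CPM in seeds with an A. thaliana mother, so it does not measure fruit tissue. FUL alone had 79.3 and 78.1 CPM in Col siliques and 65.2 and 96.6 CPM in C24 siliques. IND had 21.8 and 23.2 CPM in Col and 20.8 and 16.5 CPM in C24.

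**Figure D2:**
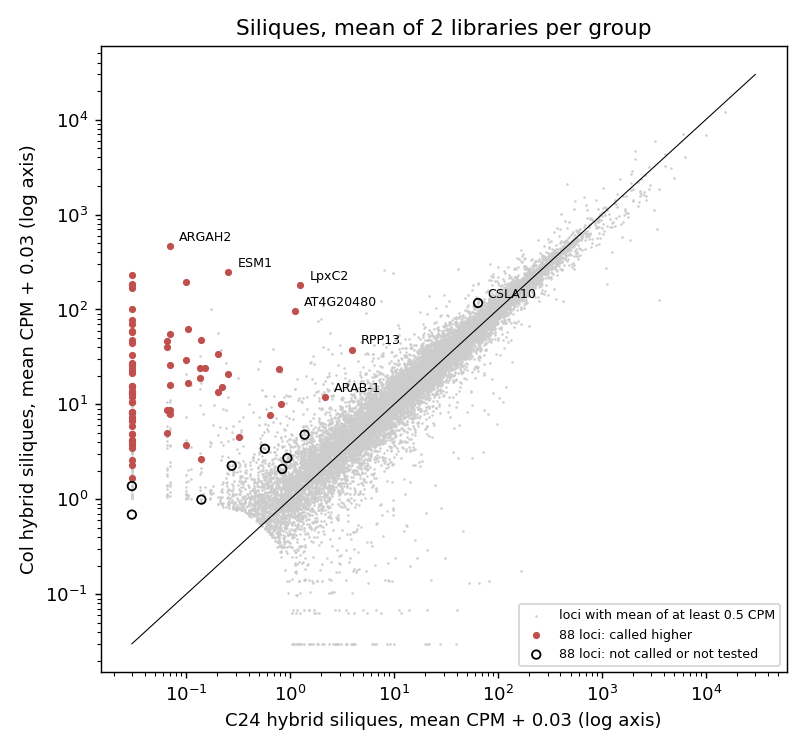
Mean CPM of the 2 Col hybrid silique libraries against the mean of the 2 C24 hybrid silique libraries (log axes, 0.03 added); grey points are all loci with a mean of at least 0.5 CPM, red points the 79 loci called higher by edgeR and open circles the 8 not called and the 1 not tested. Nearly all of the 88 loci lie far above the line of equal levels, and 48 sit at the left edge with 0 reads in both C24 libraries, while CSLA10 lies near the line.

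ARGAH2 (AT4G08870), an arginase that breaks arginine down to ornithine and urea and is known for its induction by jasmonate, had far more reads in siliques than in seeds. It had 438 and 491 CPM in Col hybrid siliques, and 0 and 0.0803 CPM in C24 hybrid siliques. The 2 groups were far apart, with a ratio of 12478 (exact binomial 95% interval 2239 to 492875, counting error only) that rests on a single read, in C24 hybrid silique 2. In Col hybrid seeds the same gene had 18.0 and 14.4 CPM, so that its mean in siliques was 28.6 times its mean in seeds. ESM1 (AT3G14210), a GDSL lipase-like protein known as a modifier of glucosinolate breakdown that differs between accessions, had 287 and 204 CPM in Col siliques. It had 0.209 and 0.241 CPM, 3 reads each, in C24 siliques, and its log2 fold change was 9.94 ± 0.39 (SE, edgeR, adjusted p = 0.000937). Of its exon sequence, 24.6% occurs elsewhere in the genome.

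Where both C24 silique libraries had 0 reads, as in 48 of the 88 loci, the fold is a bound against 3 reads per library. SADHU1-1 (AT2G10410) is a member of the Sadhu family of retroposons known for epigenetic differences between accessions. It had 221 and 112 CPM in Col siliques and 0 reads in C24 siliques, at least 739-fold higher. In C24-mother seeds it had at most 0.0867 CPM. It overlaps a locus on the opposite strand, and no strand setting of the counts was stated. LCR48 had 83.6 and 117 CPM against 0 reads, at least 446-fold higher. The non-coding RNAs AT2G15292 and AT2G14878 had 61.6 and 55.0 CPM and 47.1 and 48.5 CPM, both against 0 reads, at least 259-fold and 212-fold higher. Both are unique in sequence and had 0 reads in all 6 C24-mother libraries, as did 21 of the 88 loci. The bounds ran from 2.93-fold at the pseudogene AT5G24915 to 1035-fold at AT1G25098.

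All 5 disease resistance genes were called higher in Col siliques. Of the 89 genes of this class tested, 17 (19.1%) were, these 5 included, and 7 (7.87%) were called lower. AT4G36140 had 15.7 and 17.6 CPM with the Col mother and 0.0697 and 0.0803 CPM, 1 read each, with the C24 mother (edgeR, adjusted p = 0.00158). AT5G46510 had 17.4 and 20.8 CPM against 0.209 and 0 CPM, but 52.0% of its exon sequence occurs elsewhere in the genome. AT1G72840 had 6.29 and 7.89 CPM and AT1G63860 had 2.53 and 2.04 CPM, each against 0 reads, and neither call held without either Col library. The calls of the other 3 held without each of the 4 libraries. The fifth, RPP13 (AT3G46530), a receptor for a downy mildew effector that is known for its variation among accessions, was detected in C24 as well. It had 27.3 and 47.7 CPM in Col siliques and 3.83 and 3.94 CPM in C24 siliques, a log2 difference of 3.17 ± 0.33 (SE, edgeR, adjusted p = 0.00822). In seeds its values were 2.46 to 5.08 CPM with a Col mother and 0 to 0.398 CPM with a C24 mother.

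Of the peptides beside LCR48, AT2G03933, a cysteine-rich protein, had 3.37 and 10.07 CPM in Col siliques and 0 reads in C24 siliques (edgeR, adjusted p = 0.0350). This call rested on Col hybrid silique 2, since the adjusted p was 0.121 without it. AT5G23212, a defensin-like gene, had 2.07 and 2.38 CPM against 0.488 and 0 CPM and did not pass (edgeR, adjusted p = 0.24). A family seen after the values were known was the cysteine and histidine-rich C1 domain proteins, with 4 of the 88 loci against 13 of the 15085 Col-expressed loci. All 4 were called higher in Col siliques. Of the 29 tested in the family, 7 were, these 4 included, and 1 was called lower. AT5G42280 had 11.8 and 15.6 CPM and AT4G01920 had 6.67 and 6.81 CPM, each against 0 reads, while AT3G26240 and AT4G01740 had 0.241 to 0.803 CPM in C24 siliques. Of these calls, that of AT5G42280 held without each library, and the other 3 were lost without either Col library.

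Transcripts of some loci did appear in siliques with a C24 mother: 12 of the 88 exceeded 0.5 CPM in at least 1 C24 silique library, and 3 exceeded 2 CPM. CSLA10 (AT1G24070), of the cellulose synthase-like A family whose members make mannan backbones of the cell wall, had 46.4 and 82.2 CPM in C24 siliques and 105 and 129 CPM in Col siliques. The groups did not overlap, but the log2 difference of 0.78 ± 0.28 did not pass (SE, edgeR, adjusted p = 0.301). In seeds CSLA10 had 7.28 to 13.1 CPM with a Col mother and 0.0796 to 0.260 CPM with a C24 mother, so it met the rule in seeds while C24 hybrid fruits gave many of its reads. ARAB-1 (AT1G28670), another GDSL lipase, had 2.44 and 1.85 CPM in C24 siliques and 9.05 and 14.6 CPM in Col siliques. Its log2 difference of 2.35 ± 0.39 passed (SE, edgeR, adjusted p = 0.0376), but not without either Col library (adjusted p = 0.0758 and 0.188), and 25.6% of its exon sequence occurs elsewhere. PTR4 had 1.81 and 0.884 CPM against 4.29 and 5.24 CPM in Col, and AT4G08570, a heavy metal transport and detoxification family protein, had 0.976 and 0.643 CPM against 2.07 and 2.04 CPM. Neither passed, with adjusted p = 0.187 and 0.336 (edgeR). The other loci not called were AT1G23935, AT1G79170, AT2G15120 and AT2G38430, beside AT5G23212 above, and AT5G24915 was not tested.

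**Figure D3:**
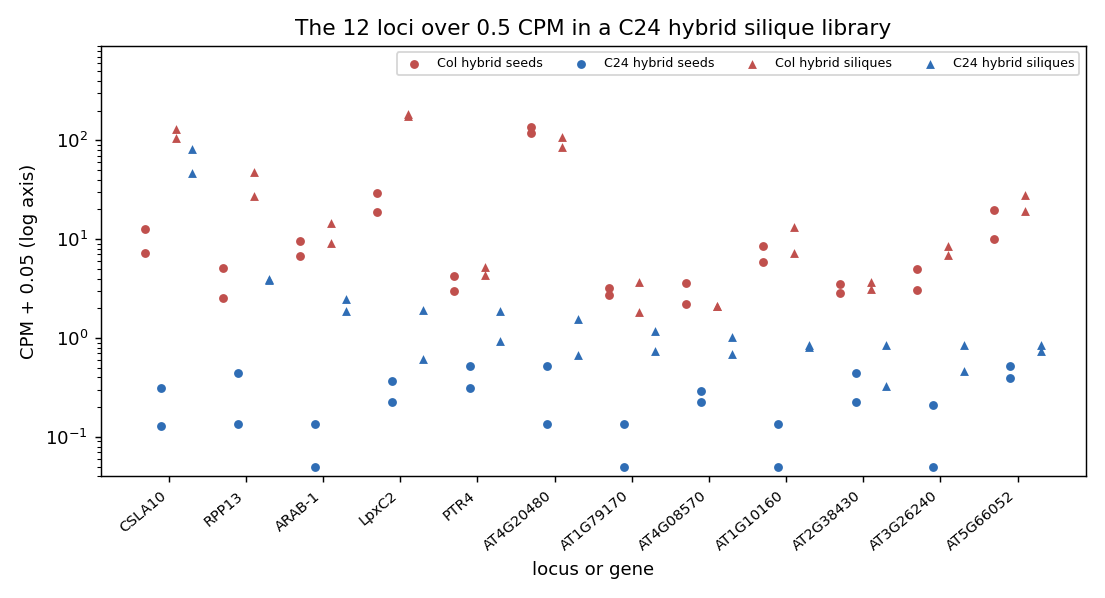
CPM per library (log axis, 0.05 added) of the 12 loci over 0.5 CPM in a C24 hybrid silique library, with circles for hybrid seeds, triangles for hybrid siliques, red for the Col mother and blue for the C24 mother. CSLA10 reached 46.4 and 82.2 CPM in C24 siliques, and all blue circles lie under 0.5 CPM by the rule.

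Within the Col hybrid, 52 of the 88 loci were higher in both silique libraries than in both seed libraries, and 16 were lower in both. Among the other Col-expressed loci these orders held for 6086 and 5046 of 14997, or 40.6% and 33.6%. The ratio of the silique mean to the seed mean ran from 0.113 at AT5G24915 to 28.6 at ARGAH2, with a median of 1.46. CSLA10 (11.7 times) was also far higher in siliques, while AT3G48230, a locus annotated as a DUF239 peptidase, was lower there at 0.276 times. The loci therefore did not share 1 tissue preference.

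A second contrast, which the rule did not use, was Col hybrid against Col control seeds, which differ in the father. Each Col control library adds up 2 deposited records, while no Col hybrid library is such a sum. An effect of the father cannot be told apart from this difference. The rule demanded at least 2 CPM in both groups, so loci near 0 in either were left out by construction. In a fit of all 8 Col-mother and C24-mother seed libraries, edgeR called 9 of the 88 loci higher in the hybrid (10.2%), where 10.4% of 20552 loci tested were called higher. It called 5 lower (5.68%), where 6.38% of all loci were called lower. Both shares were near the background, and the median log2 fold change was -0.14 over the 88 loci and -0.01 over all loci. Both hybrid libraries lay above both controls in 18 loci (22.7% of all loci tested did) and below in 40 (35.4% did). Marker genes of seed tissues differed between these groups: seed coat genes summed to 2935 and 3045 CPM in Col control seeds and to 1034 and 1378 CPM in Col hybrid seeds. The 4 embryo-list genes summed to 58.5 and 51.1 CPM in controls and 303 and 109 CPM in hybrids, mostly of PDF1, an epidermal gene. The others did not rise with it. LEC1 went from 3.36 and 3.64 CPM in controls to 1.11 and 1.23 CPM in hybrids, and WOX8 from 1.68 and 1.76 to 0.372 and 0.224 CPM. WOX2 had 0.647 and 0.260 CPM in controls and 0.495 and 0.560 CPM in hybrids. The part of these tissues in the values below was not tested.

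**Figure D4:**
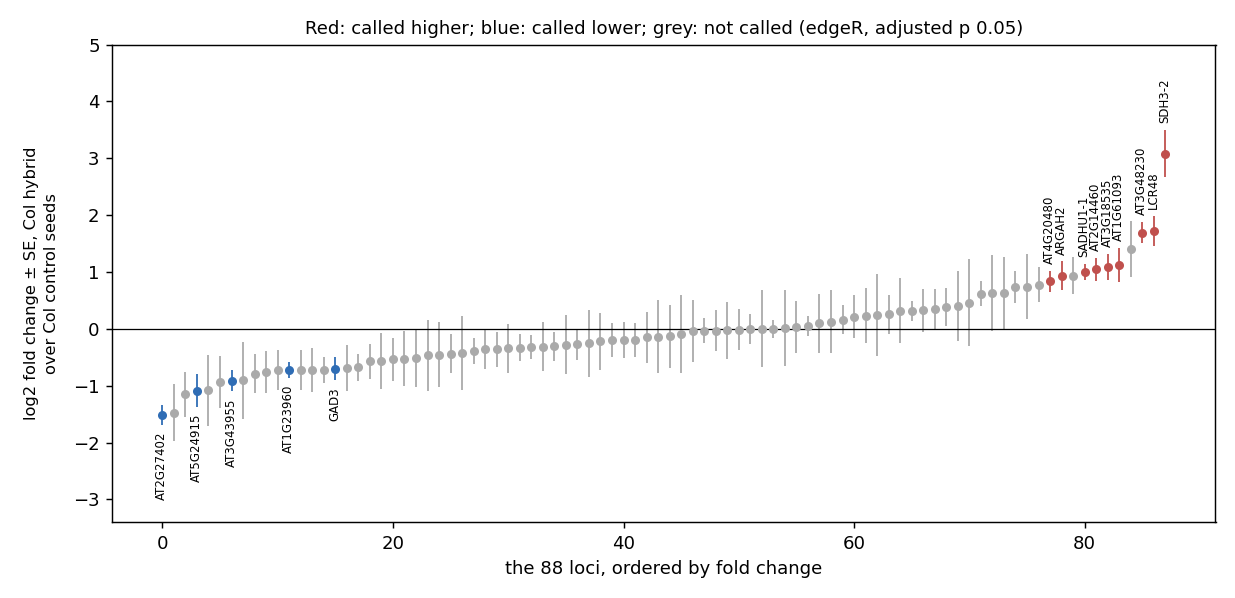
Log2 fold change ± SE of the 88 loci in Col hybrid over Col control seeds (edgeR, 2 libraries per group), ordered by size, with the 9 loci called higher in red and the 5 called lower in blue. Most loci lie near 0, and SDH3-2 lies apart at 3.08.

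SDH3-2 (AT4G32210), which encodes a membrane anchor subunit of mitochondrial succinate dehydrogenase, rose most. It had 2.13 and 2.86 CPM in Col control seeds and 21.7 and 16.9 CPM in Col hybrid seeds, a log2 fold change of 3.08 ± 0.41 (SE, adjusted p = 0.00309, edgeR). The groups did not overlap, and the call held without each of the 4 libraries, but 96.8% of its exon sequence occurs elsewhere, nearly all in SDH3-1 (AT5G09600). SDH3-1 itself had 0.0647 to 0.248 CPM in the same 4 libraries, and reads of these 2 genes cannot be told apart. In Col hybrid siliques SDH3-2 had 4.37 and 5.51 CPM.

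LCR48 and its neighbour AT3G48230 both rose in the hybrid. LCR48 went from 96.4 ± 20.6 CPM in controls to 288 ± 65.7 CPM in hybrids (SD, n = 2 libraries), and AT3G48230 from 28.9 ± 6.81 to 84.7 ± 2.42 CPM. Their log2 fold changes were 1.72 ± 0.26 and 1.69 ± 0.19 (SE; adjusted p = 0.00642 and 0.00155, edgeR), and both calls held without each library. SADHU1-1 rose from 45.9 and 46.9 CPM to 85.1 and 83.9 CPM (log2 1.00 ± 0.14, adjusted p = 0.00334, edgeR), also without each library. The other loci called higher were AT1G61093, AT3G18535, AT2G14460, ARGAH2 and AT4G20480, with log2 fold changes of 0.84 to 1.13. Each of these 5 lost its call without at least 1 library, and 4 of the 88 loci were called higher without Col control 1, and 4 without Col hybrid 1.

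Of the loci that fell, AT2G27402, annotated as a plastid transcriptionally active protein, went from 100.2 and 108 CPM in Col control seeds to 30.7 and 35.3 CPM in Col hybrid seeds. Its log2 fold change of -1.52 ± 0.17 (SE, adjusted p = 0.00182, edgeR) held without each library, and 12.8% of its exon sequence occurs elsewhere. GAD3 (AT2G02000), a glutamate decarboxylase that makes the signalling compound GABA, went from 48.8 and 58.3 to 28.4 and 31.5 CPM (log2 -0.70 ± 0.20, adjusted p = 0.0452, edgeR). AT1G23960 and the pseudogenes AT3G43955 and AT5G24915 were the others called lower. These 4 calls were each lost without at least 1 library, and AT2G27402 was the 1 locus called lower without Col control 2 or without Col hybrid 1. The count was 3 without Col control 1 and 2 without Col hybrid 2. None of the 5 disease resistance genes was called in either direction, with unadjusted and adjusted p both above 0.05 in edgeR, and 2 and 4 of the 92 genes of the class tested were called higher and lower.

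In A. arenosa seeds, read on the A. thaliana genome, 20 of the 88 loci had reads in both libraries (22.7%), against 94.0% of the Col-expressed loci. These libraries were shallow, and 3 reads stood for 1.69 and 1.44 CPM. No read was found in either library at 59 of the 88 loci, among them the pseudogenes AT2G06950 and AT2G11240, which averaged 181 and 66.0 CPM in Col-mother seeds. ESM1 had 91.7 and 24.9 CPM, and AT3G18535, annotated as a tubulin-tyrosine ligase, had 69.7 and 43.5 CPM. Both stayed at or under 0.398 CPM in the 2 C24 hybrid seed libraries, whose father was A. arenosa. CSLA10 had 23.1 and 7.66 CPM, AT4G22390, the F-box-associated locus, had 11.8 and 16.7 CPM, and RPP13 had 8.44 and 8.61 CPM. The other 4 disease resistance genes had 0 reads in both A. arenosa libraries. Neither the tissue difference noted above nor the alignment of A. arenosa reads to TAIR10 was tested.

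The 88 loci were spread over the genome, with 24, 17, 12, 15 and 20 on chromosomes 1 to 5. In locus order, 8 of them lay next to another of the 88 with at most 1 locus between: AT1G25097 with AT1G25098, AT1G64260 with AT1G64270, GAD3 with PTR4, and AT3G48230 with LCR48. AT1G24822 and LpxC2 (AT1G24880) lay farther apart in that order but overlap on opposite strands. AT1G64260 encodes a transposase of the MuDR family and AT1G64270 is a pseudogene. They had 5.26 to 8.13 CPM and 8.06 to 13.6 CPM in Col-mother seeds. The loci around the 88 were mostly transcribed with both mothers. Of their 163 nearest Col-expressed neighbours outside the set, 146 (89.6%) reached at least 2 CPM in all 4 C24-mother seed libraries, against 94.5% of all other Col-expressed loci. For 69 of the 88 this was so on both sides.

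Repeated sequence was more frequent among the 88 than among other transcribed loci. Over 5% of the 31-base words of the exons occurred elsewhere in the genome in 33 of the 88 (37.5%), against 6.18% of the Col-expressed loci, and 7 were repeated over at least 95% of their words. Of the 88, 23 overlap another locus of the table, and reads of overlapping loci cannot be told apart since no strand setting was given. In the separate table of transposable elements, 2 of the 10 elements at or over 2 CPM in all 4 Col-mother seed libraries met the rule. The reverse rule was met by 1 of the 17 elements at or over 2 CPM in all 4 C24-mother seed libraries. The 2 elements of the Col mother were as follows. AT2TE23870 had 9.96 and 8.33 CPM in Col control seeds, 9.97 and 5.60 CPM in Col hybrid seeds and 0.159 to 0.433 CPM with a C24 mother. AT2TE12510 had 2.00 to 6.19 CPM with a Col mother and 0 CPM in all 4 libraries with a C24 mother.

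One stretch of chromosome 1, from AT1G24822 to AT1G25175, held 6 of the 88 among 22 loci. Its members are AT1G24822, LpxC2 (AT1G24880), AT1G24996, AT1G25097, AT1G25098 and AT1G25175, of which LpxC2 encodes a deacetylase of the kind that bacteria use to make lipid A. Of the 31-base words of their exons, 99.5% or more occur elsewhere in the genome and many of them in one another, so how reads were shared among them cannot be told, and they are not independent of each other. AT1G25098, a non-coding RNA, had 87.4 and 108 CPM in Col control seeds, 94.6 and 44.8 CPM in Col hybrid seeds and 0 CPM in all 6 C24-mother libraries. LpxC2 had 184 and 177 CPM in Col siliques against 1.88 and 0.562 CPM in C24 siliques, a log2 difference of 7.05 (edgeR) that was 8.23 without C24 hybrid silique 1 and 6.42 without C24 hybrid silique 2. Some other loci of the stretch had reads with both mothers: AT1G24881, AT1G25055 and AT1G25150 had 50.1 to 70.3 CPM in Col-mother seeds and 9.11 to 12.3 CPM in C24-mother seeds. AT1G25054 had 5.93 to 9.43 CPM with a Col mother and 0.607 to 0.817 CPM with a C24 mother. AT1G25145 had 2.91 to 3.84 CPM and 0.126 to 0.780 CPM. Of the exon words of each of these loci, 100% occur elsewhere, so how reads were shared among them cannot be told either.

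**Figure D5:**
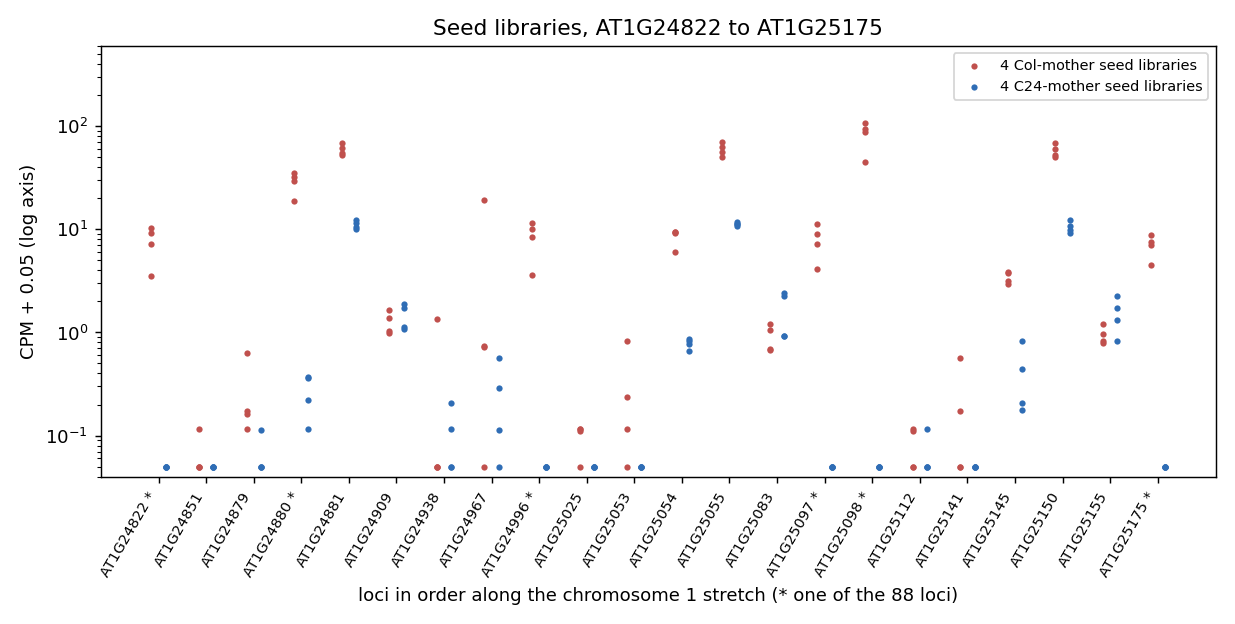
CPM in the 4 Col-mother (red) and 4 C24-mother (blue) seed libraries (log axis, 0.05 added) of the 22 loci from AT1G24822 to AT1G25175 in order, with the 6 loci of the set marked by a star. AT1G24881, AT1G25055 and AT1G25150 have 9.11 CPM or more with a C24 mother, while AT1G25098 has 0.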

How the data were processed

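Messenger RNA of 14 libraries was sequenced after poly-A selection, with random-primed cDNA per the labels' protocols. The authors deposited raw whole-number counts per locus. The aligner BWA and the build TAIR10 are named in the submitters' processing notes. How reads were assigned to loci, by strand or when they matched several places, is not given in the sources used here. Each A. thaliana control column adds up 2 deposited records, per the file headers, and was used as 1 library. Depth is given with the results.

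CPM are counts over the column total. The 88 loci, their classes and the marker lists were chosen with earlier results of these data known. Tests used edgeR 4.0.16 in R 4.3.3 (TMM factors, filterByExpr, quasi-likelihood) over all loci passing the filter, in 2 fits: the 4 silique libraries, and the 8 seed libraries with an A. thaliana mother. The threshold was a Benjamini-Hochberg adjusted p of 0.05. SE is the log2 fold change over the square root of F. The code was tested on simulated data. DESeq2 1.42.0, other scalings, filters, limits and left-out libraries were the alternatives. Replicates of a group differed by more than sampling noise (chi-square per degree of freedom 14.0 to 31.2).

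Loci were named from the TAIR10.1 annotation, which held all 88. Since the files use TAIR10, no coordinates are given. Loci named in the text were those with the highest seed level, adjacent members, those over 0.5 CPM in C24 siliques, the largest called changes, the leading loci of each class, those at the limits, and those with A. arenosa reads; others were chosen after their values were seen.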

Additional observations from a re-analysis of the deposited data

How the results depend on the processing

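The 79 silique calls became 49 with a replicate block, 84 with the crossed pairing (chosen after seeing the data), and 51 to 79 without 1 library; 0 were lower throughout. Deviations of same-numbered silique libraries correlated at -0.398, those of the Col and C24 controls at 0.466, and the labels do not tie the numbers to a shared plant or day. The 9 loci called higher in Col hybrid seeds were 4 to 10 without 1 library and 4 when replicate 1 was dropped from both the Col and the C24 control (chosen after seeing the data). The 5 called lower were 3 with DESeq2, 9 in a fit of the 4 Col-mother libraries, 1 to 3 without 1 library and 2 without both of these. With the replicate block they were 9 higher and 7 lower. The 88 loci became 146 at 1 and 0.5 CPM, 43 at 5 and 0.5 CPM, 135 at 2 and 1 CPM, and 88 to 105 without 1 library. Without a library, neither this count nor the reverse count can fall. The 9 reverse loci were 20, 5 and 36 at these limits, 5 at 2 and 0.25 CPM, 14 on TMM library sizes, 9 to 33 without 1 library and 35 without both of these. The causes were not tested. Upper quartile factors moved the median of all loci in the seed contrast to -0.16 (log2), and 7 and 6 loci were then called. No result changed direction. Counts near 0.5 CPM rest on 8 reads or fewer.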
